A study of Mus musculus with 8 samples.

Results

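The genes described here are 44 protein-folding genes of tumor-educated macrophages (TEMs): the cytosolic HSP70 and HSP90 chaperones with their partner proteins, the 8 subunits of the cytosolic chaperonin CCT, the mitochondrial chaperones, the chaperones, lectins and disulfide enzymes of the endoplasmic reticulum (ER), the transcription factors HSF1 and XBP1, which act on these genes, and Herpud1, a component of ER-associated degradation. They were chosen by gene symbol and function, with earlier results of these data known. All 44 were found among the 18635 genes of the expression table, 43 under the listed symbol and Ero1l under its current symbol Ero1a, and 43 of them were abundant enough to be tested. The 44th, Hspb1, which encodes a small heat shock protein, had mean normalized counts of only 1.89 and 3.59 in the control and PHGDH-deficient samples. A normalized count is the number of reads of a gene in a sample divided by that sample's size factor.

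The samples were bone marrow-derived macrophages (BMDMs) from C57BL/6 mice aged 6 to 8 weeks, differentiated with supernatant of L929 fibroblasts and then kept for 24 h in AE17-TCM, medium conditioned by the mouse mesothelioma line AE17. The control group was Phgdh fl/fl TEMs, in which both Phgdh alleles are floxed and no Cre is present, and the second group was Phgdh fl/fl Cx3cr1-Cre TEMs (PHGDH-deficient TEMs), which in addition carry Cre at 1 Cx3cr1 allele, so that deletion follows the activity of the Cx3cr1 promoter. There were 4 samples of each genotype, and the mice were littermates. No macrophages kept without AE17-TCM and no Cre carriers with intact Phgdh were analysed here, so the floxed gene and the Cre allele cannot be told apart.

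Molecular chaperones bind proteins that are not yet folded and release them in cycles of ATP use. In the cytosol, HSP70 proteins receive substrates from J proteins, HSP90 acts on kinases and steroid receptors at a later stage, and CCT folds actin and tubulin inside a closed ring. In the ER, the HSP70 protein BiP, calnexin, calreticulin and the protein disulfide isomerases fold secreted and membrane proteins, and the unfolded protein response, in which spliced Xbp1 encodes a transcription factor, raises their genes under load, whereas HSF1 raises the cytosolic set.

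Between 38219563 and 47027420 reads were assigned to genes per sample. Phgdh itself had 105 to 129 normalized counts in the 4 control samples and 14.2 to 35.3 in the 4 PHGDH-deficient samples, a log2 fold change of -2.15 (SE 0.21, limma adjusted p = 5.09e-08), in the direction of the labels. The first principal component of all tested genes (44.8% of the variance) separated the genotypes, and the second (13.2%) separated replicates 1 and 4 from replicates 2 and 3 in both genotypes. All 8 macrophage markers examined were present, with summed normalized counts of 1030176 to 1121134 in control and 1008585 to 1085172 in PHGDH-deficient TEMs, and 4 of them (Adgre1, Itgam, Fcgr1 and Cd14) were lower in PHGDH-deficient TEMs. Of the 29 markers of other cell types, 9 had values to analyse. Among the 6 neutrophil and progenitor markers S100a8 alone had values, and S100a9, Ly6g, Elane, Mpo and Retnlg had none. S100a8 had 467 to 575 normalized counts in control and 576 to 631 in PHGDH-deficient TEMs (log2 fold change 0.23, limma adjusted p = 0.0044). In control and PHGDH-deficient TEMs, 3 dendritic cell markers summed to 43.7 to 68.7 and 63.4 to 88.4, and 4 fibroblast markers to 22.1 to 36.2 and 19.8 to 49.6. The 1 mesothelial marker had at most 5.08. The defining lymphocyte markers had no value to analyse. The part of these markers in the results was not tested, and in bulk RNA fewer cells of a type and less RNA per cell cannot be told apart.

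To ask how the folding genes differed between the genotypes, each gene was compared with limma on log2(normalized count + 1), and p-values were adjusted over all 13629 tested genes. The chaperone genes were mostly lower in PHGDH-deficient TEMs, and the differences were small. Of the 43 tested, 25 (58.1%) were lower, by 3.83% (Canx) to 18.6% (Cct3), and 6 (14.0%) were higher, by 5.83% (Dnajc3) to 10.2% (Ero1a). The remaining 12 did not pass an adjusted p of 0.05. Among all tested genes, 41.0% passed, 20.3% in the lower and 20.8% in the higher direction. The median log2 fold change was -0.094 over the chaperone genes and -0.0018 over all tested genes. Because abundant genes are called more often, the 40 chaperone genes with a mean of at least 1000 normalized counts were set beside the 6283 such genes of the table: 29 of the former (72.5%) were called, 23 lower (57.5%) and 6 higher, and 56.9% of the latter were called, 29.6% lower and 27.3% higher. In 23 of the 43 genes the 4 samples of one genotype lay entirely outside the range of the other, 19 of them lower and 4 higher in PHGDH-deficient TEMs, against 36.7% of all tested genes (18.2% lower, 18.4% higher).

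**Figure D1:**
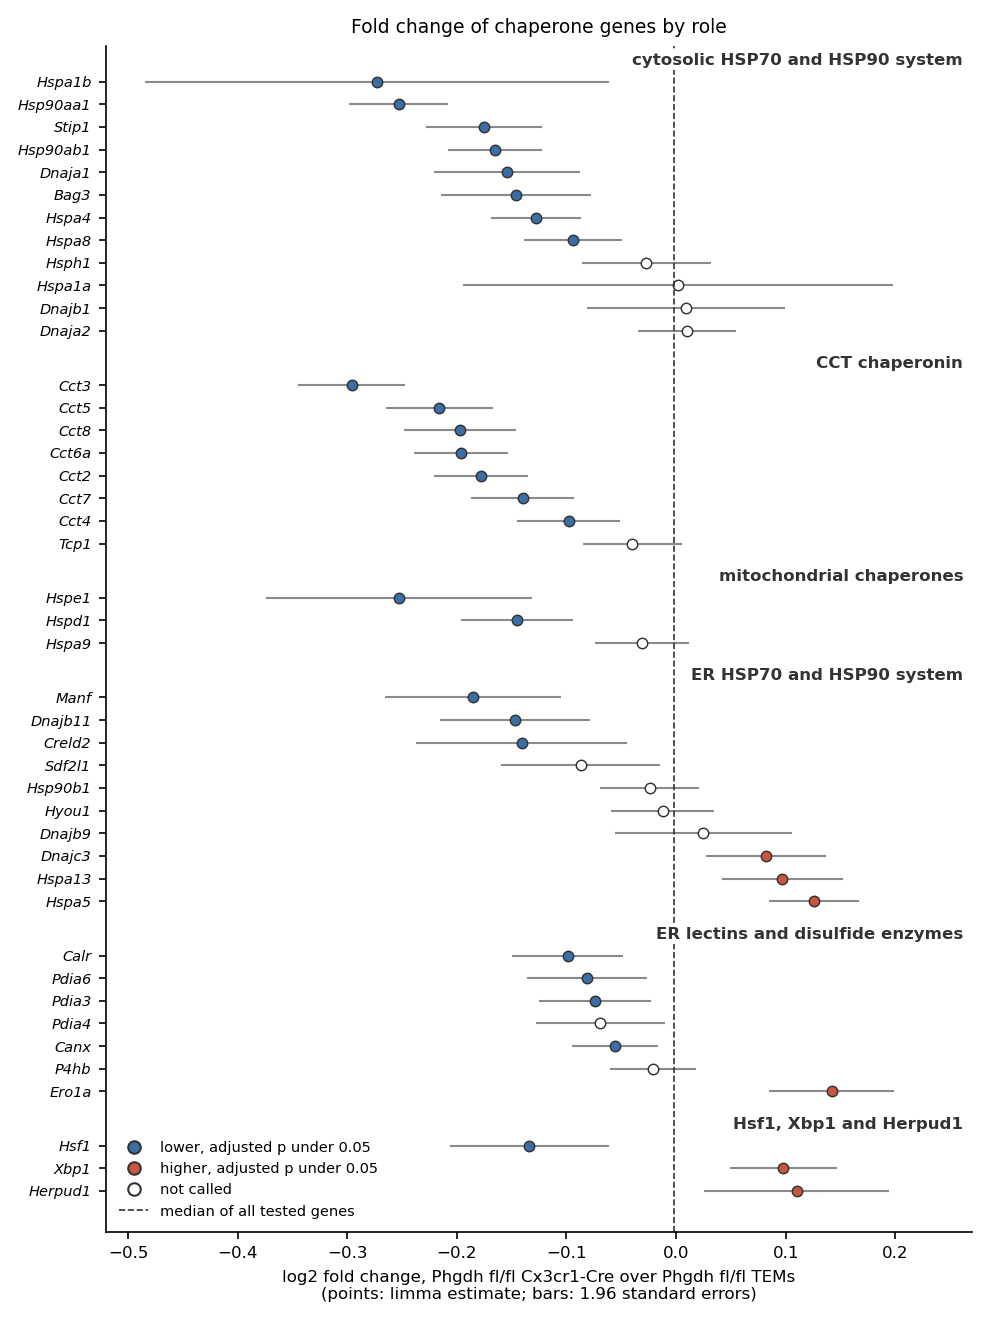
Log2 fold change (x axis, PHGDH-deficient over control TEMs) of the 43 tested chaperone genes, ordered within 6 roles, with bars of 1.96 standard errors. Called genes of the cytosolic, CCT and mitochondrial groups lie left of the dashed median of all genes (-0.0018), down to Cct3 at -0.30, and the 6 genes called higher belong to the ER groups and the group of Hsf1, Xbp1 and Herpud1.

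Of the 12 tested genes of the cytosolic HSP70 and HSP90 system, 8 (66.7%) were lower, none was higher and 4 were not called. The median log2 fold change was -0.14. Of all tested genes 20.3% were lower, and of those with a mean of at least 1000 normalized counts 29.6%. The list's summed normalized count was 119652 to 125119 in control and 110426 to 112821 in PHGDH-deficient samples, with no overlap. Hsp90aa1 (chr12:110690605-110702728, minus strand, mm10), the stress-inducible cytosolic HSP90, had 9066, 9236, 9169 and 8773 normalized counts in control replicates 1 to 4 and 7758, 7607, 7518 and 7528 in PHGDH-deficient replicates 1 to 4. Every PHGDH-deficient sample was below every control sample. Its means were 9061 ± 204 (SD, n = 4) and 7603 ± 111 (SD, n = 4), and the log2 fold change was -0.25 (SE 0.023, limma adjusted p = 2.26e-08). Hsp90ab1, the constitutive cytosolic HSP90, fell from 53592 ± 1008 (SD, n = 4) to 47793 ± 775 (SD, n = 4), by 10.8%, again without overlap. 

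Hspa8 (chr9:40800984-40810087, plus strand), the constitutive HSP70 of the cytosol, had 23972, 23918, 25361 and 24595 normalized counts in control and 23319, 22439, 22986 and 22913 in PHGDH-deficient samples. The genotypes did not overlap, and the log2 fold change was -0.094 (SE 0.023, limma adjusted p = 0.00232). This call was lost after quantile normalization. The inducible HSP70 genes had low counts. Hspa1b (chr17:34956436-34959238, minus strand) had 228.7, 153.7, 173.7 and 196.5 normalized counts in control and 159.8, 158.0, 159.6 and 139.1 in PHGDH-deficient samples. These ranges overlapped, since control replicate 2 was below 3 of the PHGDH-deficient samples. The log2 fold change of Hspa1b was -0.27 (SE 0.11, limma adjusted p = 0.0483), the exact permutation test over the 8 samples gave p = 0.114, and the call was lost without the filter on low values, with DESeq2, with scaling to total reads, and without control replicate 1 or 4 or any one of the PHGDH-deficient samples. Its near-identical neighbor Hspa1a (99.2% identity over 2201 bases) had means of 169 ± 21.4 and 168 ± 12.3 (SD, n = 4 each) and was not called, with a log2 fold change of 0.002 and an interval of -0.19 to 0.20. Reads that match both genes may have been given to either or left out in counting, so each value is uncertain and may be too low.

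Among the partner proteins, Stip1 (the adaptor that links HSP70 to HSP90) fell by 11.4%, Dnaja1 (a J protein) by 10.2%, Bag3 (a nucleotide exchange factor used in selective autophagy) by 9.66% and Hspa4 (an exchange factor of the HSP110 family) by 8.52%, and none of the 4 overlapped between genotypes. Hsph1 (HSP110), Dnaja2 and Dnajb1 (J proteins) had log2 fold changes of -0.027, 0.010 and 0.009, with intervals of 1.96 standard errors of -0.086 to 0.031, -0.034 to 0.055 and -0.081 to 0.099. Hsph1 was called lower once the trend with GC content and transcript length was removed. Near-identical copies limit the counting of several genes: transcripts of Hspa8 shared at least 200 bases at 90% identity or more with 11 other annotated genes, Hsp90aa1 with 5 and Dnaja1 with 3. The copy with the highest mean had 54.7 normalized counts for Hspa8, 32.3 for Hsp90aa1 and 15.2 for Dnaja1, all pseudogenes.

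**Figure D2:**
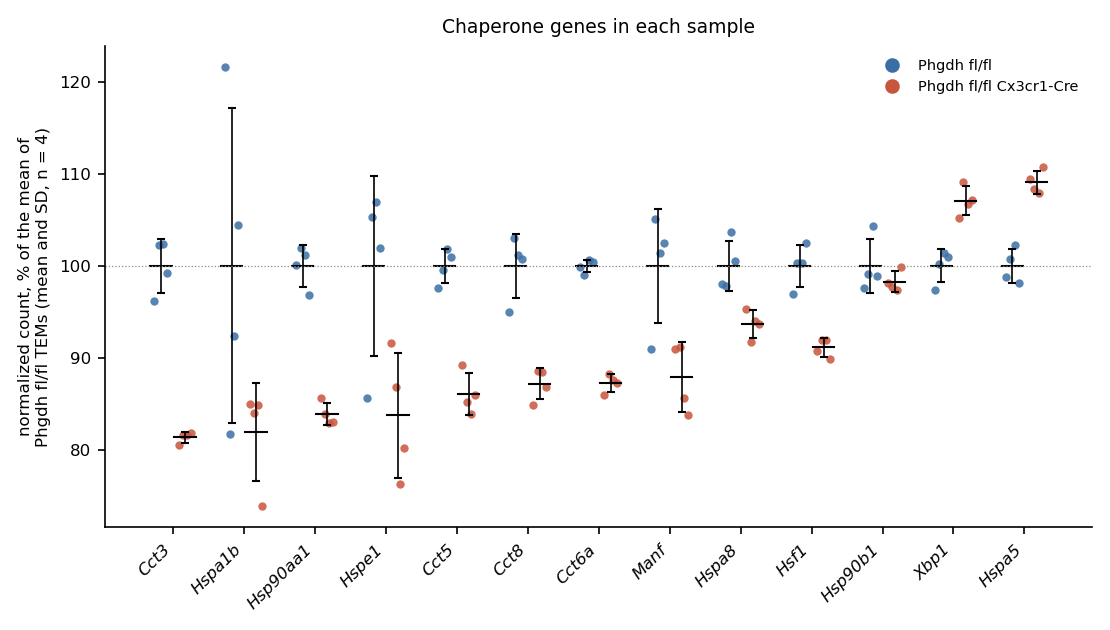
Normalized counts of 13 genes (chaperones, Hsf1 and Xbp1) in each of the 8 samples, as percent of the control mean (y axis, not starting at 0), with mean and SD (n = 4). In Cct3, Hsp90aa1, Cct5, Cct8, Cct6a, Hspa8 and Hsf1 every PHGDH-deficient sample was below every control sample, in Xbp1 and Hspa5 every one was above, and in Hspa1b, Hspe1, Manf and Hsp90b1 the genotypes overlapped.

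Of the 8 subunits of the CCT chaperonin, 7 (87.5%) were lower, none was higher and 1 was not called. The median log2 fold change was -0.19. Of all tested genes 20.3% were lower, and of those with a mean of at least 1000 normalized counts 29.6%. Summed over the 8 subunits, normalized counts were 69425, 71626, 72530 and 72376 in control and 63970, 64132, 63764 and 64217 in PHGDH-deficient samples. All 7 called subunits were without overlap between genotypes, and 18.2% of all tested genes were lower without overlap. The 7 calls held under all alternatives listed in the closing section. Cct3 (chr3:88297116-88321767, plus strand), the gamma subunit, had 5438, 5781, 5786 and 5607 normalized counts in control and 4551, 4612, 4616 and 4626 in PHGDH-deficient samples. With means of 5653 ± 166 and 4602 ± 34.1 (SD, n = 4 each), its log2 fold change of -0.30 (SE 0.025, limma adjusted p = 7.75e-09) was the lowest of the 43 genes.

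Cct5 (chr15:31590800-31601804, minus strand), the epsilon subunit, had 7215, 7353, 7525 and 7462 normalized counts in control and 6595, 6292, 6201 and 6354 in PHGDH-deficient samples, a fall of 13.9% (limma adjusted p = 4.93e-07). Cct8 (chr16:87483326-87495873, minus strand), the theta subunit, had 8774, 9523, 9353 and 9309 in control and 7847, 8183, 8177 and 8025 in PHGDH-deficient samples, a fall of 12.8% (limma adjusted p = 3.29e-06). Cct6a (chr5:129786998-129846371, plus strand), the zeta subunit, had 8192, 8121, 8251 and 8231 in control and 7046, 7236, 7186 and 7154 in PHGDH-deficient samples, a fall of 12.7% (limma adjusted p = 3.13e-07). In each of these subunits every PHGDH-deficient sample was below every control sample, and in Cct5 and Cct6a the gap between the genotypes was wider than the range within either. Cct2, Cct7 and Cct4 fell by 11.6%, 9.24% and 6.59%. Tcp1, the alpha subunit, differed by a log2 fold change of -0.040 with an interval of -0.085 to 0.005 and was not called. It was called lower once the trend with GC content and transcript length was removed. Cct6a, Cct8 and Tcp1 overlap genes on the opposite strand (Psph, Usp16 and Mrpl18), whose mean normalized counts were 316, 1767 and 1554. Among the other genes described here, Dnaja1 (mean 2352) overlaps the opposite-strand gene Smu1 (3839), and Manf (2156) overlaps Dcaf1 (828) on the opposite and Rbm15b (781) on the same strand. The strand setting used in counting is not given in the sources used here, so these genes may share reads with the genes they overlap.

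Of the 3 mitochondrial chaperones, Hspd1 (HSP60) and its lid Hspe1 (HSP10) were lower and Hspa9 (mortalin, the HSP70 of the mitochondrial matrix) was not called, with a log2 fold change of -0.031 and an interval of -0.074 to 0.012. The 2 lower genes were 66.7% of this short list, against 20.3% of all tested genes. Hspd1 fell from 5585 ± 152 to 5050 ± 81.4 (SD, n = 4 each) without overlap. Hspe1 (chr1:55088132-55091307, plus strand) had 949.2, 1167, 1185 and 1130 normalized counts in control and 1015, 962.4, 845.8 and 888.9 in PHGDH-deficient samples. Control replicate 1 was below PHGDH-deficient replicates 1 and 2. The log2 fold change of Hspe1 was -0.25 (SE 0.062, limma adjusted p = 0.00244), and the exact permutation test gave p = 0.0857. Hspd1 and Hspe1 lie head to head and overlap on opposite strands, and each shares long stretches with 5 near-identical genes.

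The stretch between these start sites is shown because it alone held an exact heat shock element upstream of a start among the chaperone promoters searched. Inexact forms of the element were not searched. The element was searched as GAANNTTCNNGAA on both strands, from 250 bases before to 50 bases after each RefSeq start (GRCm38.p6), a window given for 35 of the 44 genes. It matched in Hspd1, Hspe1 and Hsph1 (8.57% of the 35), and in 0.662% of the 27025 genes with a window. Hspd1 and Hspe1 share the same stretch, where it matched on both strands in overlapping positions, and in Hsph1 it lay after the start. The stretch printed below overlaps an annotated exon in GENCODE M21. Capitals mark the fixed letters of the match on the plus strand of Hspe1, at positions -84 to -72 counted from its start, at chr1:55088059-55088081.
Hspe1: ttctaGAAccTTCcgGAAggccc

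The ER HSP70 and HSP90 system had 3 of its 10 genes higher, 3 lower and 4 not called, with a median log2 fold change of -0.018. These shares (30.0% each) were near those of all genes with a mean of at least 1000 normalized counts, 27.3% higher and 29.6% lower. Among all tested genes, 20.8% were higher and 20.3% lower. Hspa5 (chr2:34771970-34777547, plus strand), which encodes BiP, the HSP70 of the ER lumen, had 22853, 23303, 23660 and 22703 normalized counts in control and 25304, 25066, 24960 and 25618 in PHGDH-deficient samples. Every PHGDH-deficient sample was above every control sample. The means were 23130 ± 436 and 25237 ± 292 (SD, n = 4 each), and the log2 fold change was 0.13 (SE 0.021, limma adjusted p = 5.99e-05). Hsp90b1 (chr10:86690209-86705509, minus strand), the HSP90 of the ER, had 21260, 21594, 22716 and 21534 normalized counts in control and 21378, 21286, 21207 and 21757 in PHGDH-deficient samples. The groups overlapped, and the log2 fold change of -0.024 had an interval of -0.069 to 0.021. 

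Hspa13, an HSP70-like ATPase of microsomes, rose by 6.96% without overlap, and Dnajc3, a J protein partner of BiP, rose by 5.83% with overlap. The call of Dnajc3 was lost without control replicate 2 or 4 or PHGDH-deficient replicate 2 or 3. Both calls were lost once the trend with GC content and transcript length was removed, which left Hspa5 the only gene of the 10 called higher. Manf (chr9:106838312-106891979, minus strand), a secreted ER protein that binds BiP, had 2088, 2412, 2326 and 2352 normalized counts in control and 2088, 2092, 1965 and 1922 in PHGDH-deficient samples. Control replicate 1 was within the PHGDH-deficient range. The log2 fold change of Manf was -0.185 (SE 0.041, limma adjusted p = 0.000937), and the exact permutation test gave p = 0.0857. Dnajb11, a J protein of the ER lumen, fell by 9.85% without overlap, and Creld2, an ER protein with EGF-like repeats, fell by 9.31% with overlap. The call of Creld2 was lost without control replicate 4 or PHGDH-deficient replicate 1, and once the trend with GC content and transcript length was removed. Sdf2l1, which partners ER J proteins, Hyou1, the exchange factor of BiP, and Dnajb9, a J protein of ER degradation, had log2 fold changes of -0.087, -0.012 and 0.025 and were not called. Their intervals were -0.158 to -0.015, -0.059 to 0.034 and -0.056 to 0.105. Sdf2l1 was called lower without control replicate 1, and Hyou1 was called lower once the trend with GC content and transcript length was removed.

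Of the 7 ER lectins and disulfide enzymes, 4 (57.1%) were lower, 1 (14.3%) was higher and 2 were not called. The median log2 fold change was -0.069. Of all tested genes 20.3% were lower and 20.8% higher. Of those with a mean of at least 1000 normalized counts, 29.6% were lower and 27.3% higher. Calr (calreticulin) and Canx (calnexin), the lectins that hold newly glycosylated proteins, fell by 6.69% and 3.83%, and the disulfide isomerases Pdia3 and Pdia6 by 5.04% and 5.51%. These calls depended on the scaling and on single samples: scaling to total reads removed those of Canx, Pdia3 and Pdia6, and quantile normalization removed those of Calr, Canx and Pdia3 and gave Canx a log2 fold change of 0.014. Without PHGDH-deficient replicate 1 or 4 or control replicate 3, neither Canx nor Pdia3 was called. Without PHGDH-deficient replicate 2, Canx, Pdia3 and Pdia6 were not called, without control replicate 2 Canx and Pdia6 were not, and without control replicate 4 Pdia3 was not. Pdia4 and P4hb, further isomerases, had log2 fold changes of -0.069 and -0.021, and Pdia4 was called lower after quantile normalization and without control replicate 1. Ero1a, the oxidase that reoxidizes protein disulfide isomerase, had 5782, 5625, 5329 and 5242 normalized counts in control and 5982, 6108, 6139 and 6000 in PHGDH-deficient samples. It rose without overlap, with a log2 fold change of 0.14 (SE 0.029, limma adjusted p = 0.000424), the highest of the 43 genes.

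The ER stress element, read by ATF6 and XBP1 together with NF-Y, was searched as CCAAT, 9 bases of any kind, and CCACG on both strands of the same windows. It matched in 7 of the 35 chaperone genes with a window and in 0.137% of all genes with a window. The 7 genes did not share a direction: Hspa5 and Dnajc3 were higher, Calr, Canx, Pdia6 and Creld2 were lower, and Hsp90b1, with 2 matches, was not called. Of the calls among these genes, only that of Hspa5 held under all alternatives listed in the closing section. The stretches are printed to show the element in each gene, and its part in their direction was not tested. Capitals mark the fixed letters, which read CGTGG and ATTGG where the match is on the opposite strand.
Hspa5: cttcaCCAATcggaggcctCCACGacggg
Dnajc3: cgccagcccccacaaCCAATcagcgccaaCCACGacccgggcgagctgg
Hsp90b1 (farther match): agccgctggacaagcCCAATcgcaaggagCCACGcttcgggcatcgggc
Hsp90b1 (nearer match): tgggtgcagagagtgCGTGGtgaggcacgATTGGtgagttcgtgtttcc
Calr: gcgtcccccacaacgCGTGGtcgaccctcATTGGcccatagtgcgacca
Canx: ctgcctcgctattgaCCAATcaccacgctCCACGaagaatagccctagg
Pdia6: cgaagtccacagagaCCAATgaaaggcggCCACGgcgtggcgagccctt
Creld2: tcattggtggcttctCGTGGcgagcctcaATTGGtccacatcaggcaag

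In GRCm38.p6 these stretches lie at chr2:34772020-34772048 (Hspa5, plus strand), chr14:118937812-118937860 (Dnajc3, plus), chr10:86705623-86705671 and chr10:86705518-86705566 (Hsp90b1, minus), chr8:84847060-84847108 (Calr, minus), chr11:50325785-50325833 (Canx, minus), chr12:17266476-17266524 (Pdia6, plus) and chr15:88819505-88819553 (Creld2, plus). Each is written on the strand of its gene and lies upstream of its RefSeq start. The stretch of Hspa5 is inside an exon of a longer transcript in GENCODE M21, and the others are outside annotated exons. The shorter element TGACGTG, bound by XBP1, was found only in Hspa5 among the 35, at positions -157 to -151 counted from its start, and in 2.22% of all genes with a window. The amino acid response element TGATGNAA was found only in Herpud1 among the 35 and in 4.51% of all genes with a window. The 9 chaperone genes without a window in the table were Cct4, Hsf1, Hsp90aa1, Hsp90ab1, Hspa13, Hspa8, Hspa9, Hyou1 and Manf. A match describes letters in a window and was not tied to binding of a factor.

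Of the transcription factors, Hsf1 was lower and Xbp1 higher in PHGDH-deficient TEMs, and the degradation component Herpud1 was higher. Hsf1 (chr15:76477422-76501913, plus strand), the heat shock factor of the cytosolic chaperones, had 1050, 1086, 1086 and 1110 normalized counts in control and 983.4, 995.6, 995.3 and 973.5 in PHGDH-deficient samples. It fell by 8.86% without overlap (limma adjusted p = 0.0064). Xbp1 (chr11:5520659-5525893, plus strand), the unfolded protein response factor, had 4392, 4518, 4572 and 4552 in control and 4745, 4918, 4811 and 4833 in PHGDH-deficient samples. It rose by 7.05% without overlap (limma adjusted p = 0.00282). Gene counts do not separate spliced from unspliced Xbp1. Herpud1, an ER membrane protein of the degradation pathway, rose from 977 ± 35.6 to 1055 ± 50.8 (SD, n = 4 each) with overlap, and its call (limma adjusted p = 0.0454) was lost with DESeq2, without the filter on low values, after quantile normalization and without control replicate 1, 3 or 4 or PHGDH-deficient replicate 2 or 3.

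Levels per exon length, given as FPKM from the recovered reads, spanned a wide range among these genes. The length is that of the merged exons of all annotated transcripts of a gene, so genes with long alternative exons have lower FPKM. Hsp90ab1 was the highest in control TEMs with 412 ± 7.28 FPKM (SD, n = 4), followed by Calr with 187 ± 7.43 and Pdia3 with 159 ± 6.69. The levels of Hspa8 (131 ± 3.40), P4hb (129 ± 1.38), Hspa5 (126 ± 2.31) and Hsp90b1 (125 ± 3.51) followed, and neighbors in this order overlapped within 1 SD. In PHGDH-deficient TEMs the mean level of Hspa5 was 139 FPKM, above those of Hspa8 (124) and P4hb (129). Transcripts of the CCT subunits ranged from 20.5 FPKM (Cct3) to 112 FPKM (Cct2) in control TEMs, over merged exons of 6370 and 2557 bases, so this range depends in part on the length used. Hsf1 (3.52 FPKM), Hspa1b (1.55), Hspa1a (1.31) and Hspb1 (0.0424) had the lowest levels. Those of Hspa1b and Hspa1a may be too low, since reads that match both genes may have been left out.

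**Figure D3:**
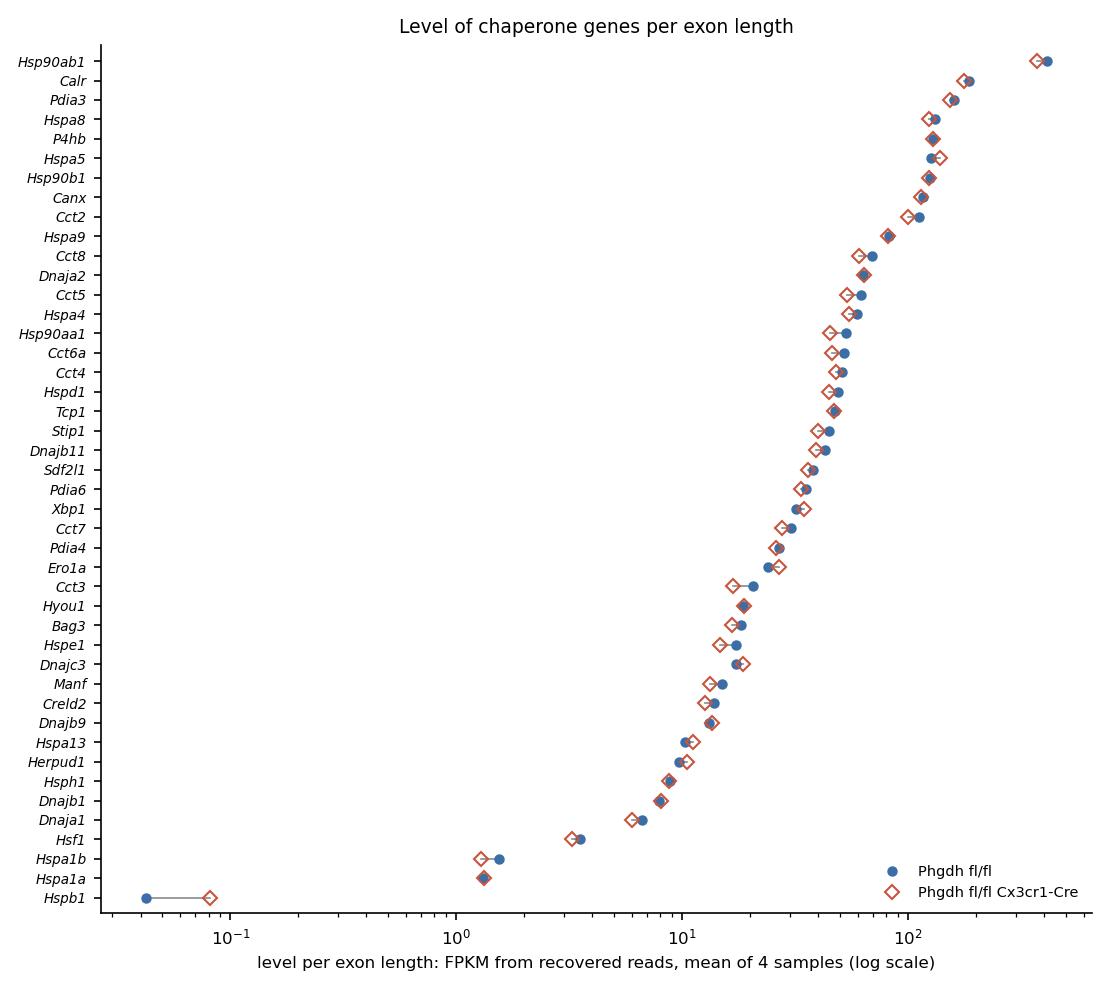
Mean level of the 44 chaperone genes in FPKM (x axis, log scale) in control (filled circles) and PHGDH-deficient TEMs (open diamonds), n = 4 each, ordered by the control level. Levels run from 0.0424 FPKM (Hspb1) to 412 FPKM (Hsp90ab1), and the distance between the genotypes is small beside the range among genes.

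A wider set of 126 folding and ER quality-control genes, taken by function with earlier results of these data known, was read from the same fit. Values were analysed for 123, of which 37 were lower, 18 higher and 68 not called (44.7% called, against 41.0% of all tested genes), with a median log2 fold change of -0.033. By direction, 30.1% were lower and 14.6% higher, against 20.3% and 20.8% of all tested genes. The lower share was near that of all genes with a mean of at least 1000 normalized counts. Of those, 29.6% were lower and 27.3% higher. Among 17 co-chaperones of HSP90, 9 (52.9%) were lower and none was higher. Ahsa1, the activator of the HSP90 ATPase, had 7681, 8320, 8010 and 7947 normalized counts in control and 6220, 6190, 5994 and 6047 in PHGDH-deficient samples, a log2 fold change of -0.39 (limma adjusted p = 1.75e-10). Fkbp5, an immunophilin of steroid receptor complexes, had a log2 fold change of -0.29 (limma adjusted p = 1.02e-05). Among the 10 genes of prefoldin, which hands substrates to CCT, and other CCT helpers, 5 were lower and none was higher, with Pfdn2 at -0.31 and Pfdn6 at -0.20 on the log2 scale.

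The 21 other HSP70s, J proteins and exchange factors held 9 lower (42.9%) and 3 higher (14.3%) genes, against 20.3% and 20.8% of all tested genes. Hspa4l, an HSP110 family member, had 2513, 2331, 2238 and 2227 normalized counts in control and 3769, 3670, 3764 and 3752 in PHGDH-deficient samples. Its log2 fold change of 0.69 (SE 0.034, limma adjusted p = 1.52e-12) was opposite to that of its relative Hspa4 (-0.13). Dnaja4, a J protein, was higher at a low level (30.0 to 38.2 and 46.7 to 50.8 normalized counts), and Hspbp1, an exchange factor, and Dnajc8, a J protein of the spliceosome, were lower at -0.23 and -0.17 on the log2 scale. The call of Dnaja4 was lost with DESeq2 and without control replicate 1 or 3 or PHGDH-deficient replicate 2 or 3. Of 12 mitochondrial folding and quality-control genes, 3 (25.0%, against 20.3% of all tested genes) were lower and none was higher. The 3 included Dnajc19, a J protein of the import motor, at -0.23 and Trap1, the mitochondrial HSP90, at -0.13. Of 6 genes listed with the heat shock factors and small heat shock proteins, Hsbp1 was lower, at -0.12, and Hspb6 was higher, at 0.33. Hsbp1, a binding partner of heat shock factors, was named after its values were seen.

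In the ER, the 24 other folding factors held 7 lower (29.2%) and 3 higher (12.5%) genes, against 20.3% and 20.8% of all tested genes. The lower share was near that of all genes with a mean of at least 1000 normalized counts. Of those, 29.6% were lower and 27.3% higher. Fkbp2, a prolyl isomerase, and Erp29 were both lower, at -0.19, and the J proteins Dnajc10 and Dnajc1 were both higher, at 0.093 and 0.090. The calls of Dnajc10 and Dnajc1 were lost once the trend with GC content and transcript length was removed, and that of Dnajc1 also without control replicate 3 or PHGDH-deficient replicate 1. The 20 genes of ER-associated degradation held 3 lower and 5 higher genes, and 6 lower and 2 higher genes after that correction. Without it, 20.3% of all tested genes were lower and 20.8% higher, and 29.6% and 27.3% of those with a mean of at least 1000. The correction moved all tested genes the same way, from 2764 lower and 2830 higher to 3424 lower and 2059 higher. Of the 5 genes higher in the main fit, Edem2 and Ubxn4 were still called, Edem1 and Edem3 were not, and Sel1l turned to -0.0014. Ubxn4, Edem1 and Sel1l were named after their values were seen. Edem2 and Edem3, which trim mannose from proteins to be degraded, had log2 fold changes of 0.23 and 0.16, whereas Selenos and H13 had -0.13 and -0.11. Of the 13 transducers and effectors of the unfolded protein response, 6 were higher and none was lower, with a median log2 fold change of 0.097. Trib3, a pseudokinase induced in the response, had 365.4, 383.8, 338.0 and 376.8 normalized counts in control and 526.6, 489.5, 470.7 and 550.5 in PHGDH-deficient samples (log2 fold change 0.475, SE 0.063, limma adjusted p = 3.39e-06). Ddit3, which encodes CHOP, had 1191, 1477, 1336 and 1364 in control and 1871, 1672, 1582 and 1777 in PHGDH-deficient samples (log2 fold change 0.36, SE 0.054, limma adjusted p = 1.47e-05). The genotypes did not overlap in either gene. Named after their values were seen, the other 4 called genes were the phosphatase subunit Ppp1r15a (0.35), the sensors Ern1 (0.21) and Atf6 (0.15) and the protease Mbtps2 (0.097), while the sensor Eif2ak3 (0.078) and the factor Atf4 (-0.047) were not called. The calls of Atf6 and Mbtps2 were lost once the trend with GC content and transcript length was removed.

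**Figure D4:**
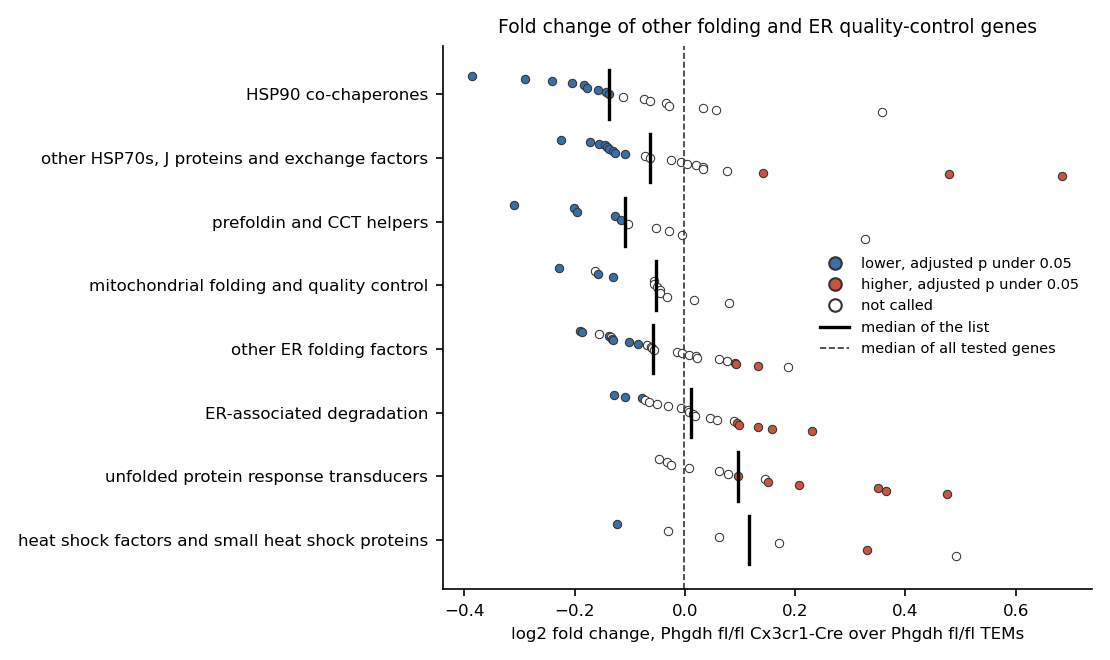
Log2 fold change (x axis, PHGDH-deficient over control TEMs) of 123 other folding and ER quality-control genes in 8 groups, with the median of each group as a bar. The co-chaperones of HSP90 and the prefoldin group have medians of -0.14 and -0.11 and no gene called higher, and the unfolded protein response group has a median of 0.097 and no gene called lower.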

How the data were processed

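RNA from 8 samples (4 per genotype, biological replicates per the study's methods) was sequenced after NEBNext Ultra Directional library preparation. The authors aligned reads with TopHat2 to mm10, counted them per gene with HTSeq 0.6 and normalized them with DESeq2. The deposited values are a normalized signal, counts divided by 1 size factor per sample (0.889 to 1.086): all 144353 values above 0 became whole reads within a tolerance of 0.01 when multiplied by it. The deposited table also holds the authors' fold changes on a log2 scale, test score and p-value columns, none of which were used. Genes had at least 10 reads over the 8 samples. Genes with a mean of at least 10 normalized counts (13629) were tested with limma 3.58.1 in R 4.3.3 on log2(value + 1), two-sided, with Benjamini-Hochberg adjustment, so fold changes of low genes are understated. Intervals are 1.96 standard errors. With 4 against 4 samples the exact two-sided permutation test cannot go below p = 0.0286. FPKM used GENCODE M21 exon lengths. Near copies were sought with BLAST 2.17.0. Alternatives were edgeR 4.0.16 and DESeq2 1.42.0 on recovered reads, other filters, pseudocounts and scalings, a replicate block, leaving out each sample, and removal of the GC and length trend, chosen after seeing the data. Depth per sample was 38219563 to 47027420 reads. Per-sample values are given for the 8 called genes with the largest change and for Hspa5, Hsp90b1, Hspa8, Hsf1 and Xbp1, and, chosen after their values were seen, for Ero1a. From each wider list, up to 2 called genes without overlap were named at each end. All members and lists were chosen with earlier results of these data known. The scripts' fits were tested on simulated data. Promoter sequences are from RefSeq.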

Additional observations from a re-analysis of the deposited data

Results flagged for a closer look

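In 4 of the 86 groups of 4 samples examined over the 43 tested chaperone genes, 1 sample stood apart from the others by more than Dixon's critical value, where chance flags about 1 in 20 groups. Hspa1b was low in PHGDH-deficient replicate 4, with 139.1 normalized counts against 158.0 to 159.8 in the other 3. Dnajb1 was low in PHGDH-deficient replicate 2, with 1026 against 1127 to 1141. Calr was high in PHGDH-deficient replicate 1, with 22173 against 21521 to 21618. Pdia6 was high in control replicate 2, with 6083 against 5564 to 5620. Without that sample the call of Pdia6 was lost, and without PHGDH-deficient replicate 4 the call of Hspa1b was lost.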

How the results depend on the processing

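The number of chaperone genes called was 31 and ranged from 27 to 31 under the other filters, pseudocount, scalings, edgeR, DESeq2 and the GC and length correction, and from 25 to 31 when 1 sample was left out. Leaving out 1 sample gave median log2 fold changes of the chaperone genes from -0.11 (without control replicate 1) to -0.084. Of the 31 genes, scaling to total reads kept 27, quantile normalization 26 and the GC and length correction 28. Quantile normalization turned Canx to 0.014. After the GC and length correction, 3424 of all tested genes were lower and 2059 higher, against 2764 and 2830 without it, 12 rather than 18 of the 123 other folding genes were higher, and the log2 fold changes of Sugt1 (-0.092), Dnajb14 (-0.077), Dnajc5 (-0.085), Uggt1 (-0.095) and Sel1l (-0.0014) turned negative. The cause of these changes was not tested. With a replicate block all 31 calls remained (31 called, 5597 of all tested genes called). Samples that share a number correlated by 0.063 to 0.13 in their deviations from the genotype means. For control replicates 2, 3 and 4 the best correlated PHGDH-deficient sample had the same number, and for control replicate 1 it was replicate 4. The main fit did not treat the numbers as pairs, and the replicate block did. The fewest reads were behind the values of Hspb1, Hspa1a and Hspa1b.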
